A study of Mus musculus with 24 samples.

Results

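Rev-erbα (gene Nr1d1), a heme-binding nuclear receptor that represses transcription, was mapped by ChIP-seq in epididymal white adipose tissue (eWAT, called fat here). The sites described here are the fat peaks found at no brain peak, away from promoters and away from liver borders. A fat peak was taken when it overlapped no brain peak by even 1 bp, when its centre lay over 1 kb from every protein-coding transcription start, and when no border of the liver ChIP-exo list lay within 100 bp of its centre. Of 9016 fat peaks, 706 overlapped a brain peak, 640 of the other 8310 lay within 1 kb of a start, and 1998 of the remaining 7670 had a liver border. This left 5672 sites (62.9% of the fat list), which were thus chosen by measured values, namely presence or absence in the 3 deposited lists. They are called distal fat-alone sites below, and "alone" means only absence from the other 2 lists.

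Lists of 3 of the 16 groups (24 samples) were used. These were Rev-erbα ChIP-seq of eWAT with 2 libraries, ChIP-exo of the same protein in liver with 2 libraries, an assay in which an exonuclease trims bound DNA back to the protein's edge, and Rev-erbα ChIP-seq of brain (ventral tegmental area) with 1 library. All 3 came from C57BL/6 mice of the genotype C57BL/6J Wild Type at zeitgeber time 10 (ZT10, 10 h after lights on); the labels give no age, sex or number of animals. Each group was represented by 1 list, with 9016 peaks in fat, 245360 borders in liver and 10687 peaks in brain. No value per replicate and no read depth was at hand, so depth is unknown and no spread between animals could be given. The p-values below are over sites, and neighbouring sites are not independent, so they are too small by an unknown amount. Whole fat tissue holds adipocytes and also vascular, stromal and immune cells, and fewer cells of a type and less binding per cell cannot be told apart.

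As background, Rev-erbα binds DNA as a monomer at a hexamer of the AGGTCA type preceded by an A/T-rich stretch (the Rev-erbα response element), competing there with the activating ROR receptors, or as a pair of molecules on repeated hexamers, where it recruits the corepressor NCoR with the histone deacetylase HDAC3. It is also known to be brought to chromatin through other transcription factors of a tissue, without its own element. In fat the factors known to mark enhancers include C/EBP proteins and PPARγ, which drive adipocyte differentiation, the glucocorticoid receptor, NFI proteins and EBF factors. The clock activators BMAL1 and CLOCK bind the E-box CACGTG, and PAR bZIP factors such as Dbp and Hlf bind D-boxes. The comparisons ask which of these sequences stood at the distal fat-alone sites, and how they differed from the 1998 distal fat sites with a liver border and from 4943 distal brain-alone sites, which are brain peaks chosen by the same limits with fat and brain exchanged.

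Examples of the sites are shown first, since the findings on sequence turn on them. Each spans 50 bp to either side of a peak's central base, on the plus strand of mm9, with the motif match in capitals, and is named by the gene with the nearest protein-coding start. They were taken by a fixed rule as the highest-scoring sites with each motif. The first 4 carry the Rev-erbα response element, on the minus strand in the first 3 and on the plus strand in the fourth.
Fis1 (chr5:137409413-137409513): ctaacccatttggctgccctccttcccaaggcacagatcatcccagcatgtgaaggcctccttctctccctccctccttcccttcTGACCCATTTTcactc
Rnmtl1 (chr11:76127780-76127880): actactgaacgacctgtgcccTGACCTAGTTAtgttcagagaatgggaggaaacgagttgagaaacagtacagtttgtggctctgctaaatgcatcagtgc
Vit (chr17:78986751-78986851): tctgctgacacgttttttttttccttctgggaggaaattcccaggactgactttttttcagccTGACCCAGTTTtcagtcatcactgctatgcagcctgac
Tph2 (chr10:114537376-114537476): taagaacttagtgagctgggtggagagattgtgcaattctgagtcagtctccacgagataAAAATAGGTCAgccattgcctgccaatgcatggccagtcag
The next 2 carry 2 copies of GGTCA in the same direction, 3 bases apart, which is the core of the Rev-erb DR2 (direct repeat) element, on the minus strand at Rasef and on the plus strand at Rasgrf1.
Rasef (chr4:73394317-73394417): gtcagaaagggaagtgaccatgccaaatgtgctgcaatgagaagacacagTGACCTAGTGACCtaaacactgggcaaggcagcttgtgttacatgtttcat
Rasgrf1 (chr9:89874261-89874361): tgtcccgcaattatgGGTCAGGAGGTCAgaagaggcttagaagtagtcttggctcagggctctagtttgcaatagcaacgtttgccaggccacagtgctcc
The last 3 carry no Rev-erb element in capitals but a glucocorticoid receptor palindrome (Hspb7), a CTCF core on the minus strand (Slc7a10) and an EBF palindrome (Hemk1).
Hspb7 (chr4:140979301-140979401): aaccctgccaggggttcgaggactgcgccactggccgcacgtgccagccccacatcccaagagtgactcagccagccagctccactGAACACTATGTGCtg
Slc7a10 (chr7:35959726-35959826): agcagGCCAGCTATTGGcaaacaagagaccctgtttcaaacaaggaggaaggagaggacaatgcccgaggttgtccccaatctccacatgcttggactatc
Hemk1 (chr9:107227505-107227605): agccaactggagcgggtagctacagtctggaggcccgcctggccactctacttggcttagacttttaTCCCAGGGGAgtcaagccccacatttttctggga
The Fis1 site was intergenic, 19682 bp from the start of this mitochondrial fission gene (authors' score 60.8, rank 182 of the fat list). The site nearest to Rnmtl1 lay in an intron of Nxn, the gene of nucleoredoxin (score 56.7, rank 217). The Vit site (score 47.6) and the Tph2 site (score 45.6) lay in introns of those genes, over 75 kb from their starts in both cases.

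The distal fat-alone sites scored somewhat lower than the fat list as a whole. Each peak carries a score that the files do not define; it is the authors' own, and it is used only to rank sites within the fat list. The scores of the 5672 sites ran from 10.1 to 100.3 with a median of 13.2 (quartiles 11.1 and 18.2). All 9016 fat peaks, which include these sites, had a median of 14.2 (quartiles 11.1 and 21.3), and 2337 of the sites lay above it. The median was 17.2 for the 1998 distal fat sites with a liver border, 27.4 for the 706 fat peaks that overlapped a brain peak and 14.2 for the 640 other fat peaks within 1 kb of a start. With the fat list split by score into 10 equal parts, the distal fat-alone sites made up 26.8% of the highest-scoring part and 76.0% of the lowest-scoring part. Their best rank was 49, and 7 of them were among the first 100 peaks, and 281 among the first 1000.

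Some sites lay close to the limits that chose them. The nearest liver border lay within 50 bp beyond the 100 bp limit at 173 of the sites, while 381 fat peaks that met the other criteria had theirs within 50 bp inside it and 1617 closer to the centre. At the far end 1421 sites had no liver border within 10 kb, and the median distance to a border was 3943.5 bp. The centre of the nearest brain peak lay within 500 bp at 48 sites and beyond 10 kb at 4820, with a median distance of 56498 bp. Within 500 bp beyond the 1 kb limit from a start lay 145 sites, and 134 fat peaks lay within 500 bp inside it.

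Rev-erbα's own elements were enriched at the centres of the distal fat-alone sites, but most sites had none of them. Each motif was searched on both strands within 50 bp of the peak's central base (the centre) and, as a control within each site, in a window of equal width 1000 bp to the right, here called the flank. An exact McNemar test compared sites with the motif in the centre but not the flank with sites of the opposite kind, with Benjamini-Hochberg adjustment over 27 motifs. Of the 27 motifs, 14 (51.9%) were more frequent at the centre and 1 (3.70%) was less frequent. The Rev-erbα response element stood in the centre of 130 sites (2.29%, 95% Wilson interval 1.93 to 2.72%) and in the flank of 13 (0.229%), a ratio of 10.8 between the discordant sites (95% interval 5.95 to 21.3, exact McNemar test, adjusted p = 2.83e-25). The hexamer AGGTCA, which any of several nuclear receptors can bind, was found in 12.9% of centres and 6.29% of flanks (ratio 2.22, 1.94 to 2.55, exact McNemar test, adjusted p = 2.25e-32). The pair of GGTCA copies 3 bases apart was rare, in 22 centres and 1 flank (exact McNemar test, adjusted p = 1.19e-05). These letters overlap, because the pair and most response elements can contain AGGTCA. At least 1 of the 3 elements was found in 787 centres (13.9%, 13.0 to 14.8%), against 363 flanks (6.40%, 5.79 to 7.07%). The G form of the hexamer, GGGTCA, counted only within the response element or the pair, so sites with it alone are not among these.

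Other arrangements of receptor hexamers were not past the threshold. The DR1 element, which PPARγ binds with its partner RXR, was found in 0.441% of centres and 0.247% of flanks (ratio 1.79, 0.893 to 3.72, exact McNemar test, adjusted p = 0.164). That interval holds the ratio of AGGTCA and lies below that of the Rev-erbα response element. A pair of GGTCA copies 5 bases apart was found in 2 centres and 1 flank, too few to detect a difference.

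Motifs of fat transcription factors were enriched at the centres, and the short NFI site and C/EBP had the highest shares of the 14 enriched motifs. The C/EBP motif TTGCNNAA (N, any base) was found in 772 centres (13.6%, 12.7 to 14.5%) and 232 flanks (4.09%, 3.61 to 4.64%), a ratio of 3.76 (3.20 to 4.42, exact McNemar test, adjusted p = 1.01e-72). The short NFI site TTGGCA, one arm of the NFI palindrome, was found in 13.9% of centres and 4.95% of flanks (ratio 3.06, 2.65 to 3.55, exact McNemar test, adjusted p = 1.27e-59). The full NFI palindrome, with TGGC and GCCA 5 bases apart, was found in 38 centres and 9 flanks, a call that ended in a 51 bp window (ratio 2.14). The glucocorticoid receptor palindrome, with ACA and TGT 3 bases apart between an outer G and an outer C, was rarer but had a ratio of 11.7 (6.14 to 25.04), with 117 centres (2.06%) and 10 flanks (0.176%; exact McNemar test, adjusted p = 1.03e-23). That ratio was close to the ratio of the Rev-erbα response element. The EBF palindrome, TCCC and GGGA 2 bases apart, was found in 70 centres (1.23%) and 16 flanks (0.282%). AP-1, TGANTCA, bound by Fos and Jun, was found in 5.20% of centres and 3.10% of flanks. TEAD, CATTCCA, bound by the partners of the Hippo pathway coactivator YAP, was found in 3.16% of centres and 1.78% of flanks.

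Clock-related motifs and CTCF were enriched as well. The E-box CACGTG was found in 337 centres (5.94%, 5.36 to 6.59%) and 79 flanks (1.39%), a ratio of 4.53 (3.51 to 5.93, exact McNemar test, adjusted p = 2.24e-39). The other E-box form tested, CAGCTG, which tissue bHLH factors bind, was found in 8.25% of centres and 4.58% of flanks (ratio 1.87). The D-box TTATGNAA was found in 3.88% of centres and 1.34% of flanks; it shares letters with TTGCNNAA, so 1 sequence can match both. The core of CTCF, the factor that anchors chromatin loops, was found in 216 centres (3.81%, 3.34 to 4.34%) and 35 flanks (0.617%), a ratio of 6.66 (4.57 to 9.98, exact McNemar test, adjusted p = 3.64e-33). The motif less frequent at the centre was the GATA motif AGATAAG, in 0.864% of centres and 1.66% of flanks (ratio 0.516, 0.357 to 0.739, exact McNemar test, adjusted p = 3.39e-04), which did not pass with the flank at 500 bp (ratio 0.716). The 12 motifs past the threshold in neither direction were DR1, the pair 5 bases apart, CRE, ETS, forkhead, the liver factors HNF4 and HNF1, SP, KLF, MEF2, STAT and RUNX. Among all fat peaks the shares at the centre were 2.55% for the response element, 13.9% for AGGTCA, 14.0% for C/EBP, 13.9% for the short NFI site, 1.87% for the glucocorticoid receptor, 9.11% for CACGTG and 3.92% for CTCF. A match is a run of letters and does not show that the factor was bound.

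Matches lay near the middle of the peaks. Within the 150 bp of each peak, the median distance of a match from the peak centre was 29 bp for the Rev-erbα response element, 27 bp for the glucocorticoid receptor, 32.5 bp for C/EBP, 29.5 bp for CACGTG and 20.5 bp for CTCF, where the end of the peak is 75 bp away.

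**Figure D1:**
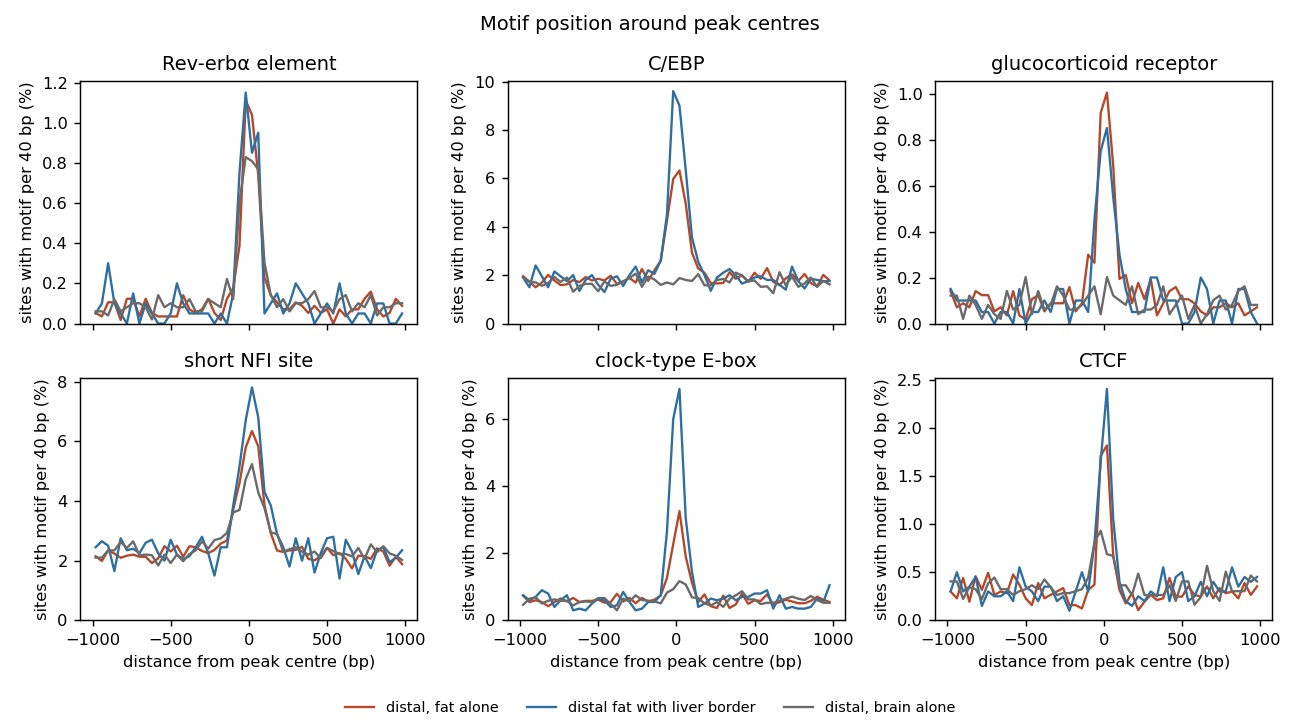
Share of sites with a match of each motif per 40 bp bin (percent, vertical axis) against distance from the peak centre (bp, horizontal axis), for distal fat-alone sites, distal fat sites with a liver border and distal brain-alone sites. The lines peak at the centre and are flat away from it; the brain-alone line shows no central peak for C/EBP and the glucocorticoid receptor, and the fat-alone line for the clock-type E-box (CACGTG) lies between the other 2.

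Some motifs were less frequent in the distal fat-alone sites than in distal fat sites with a liver border, and none passed as more frequent. Shares at the centre were compared by Fisher's exact test (two-sided), adjusted over 27 motifs and both comparison sets. Of the 27 motifs, 0 (0%) were higher in the fat-alone sites and 6 (22.2%) were lower. By the same Fisher test without adjustment 1 motif, TEAD, was higher at a p under 0.05. The E-box CACGTG differed most, at 5.94% of fat-alone sites and 14.1% (12.7 to 15.7%) of fat sites with a liver border (odds ratio 0.384, 0.324 to 0.456, adjusted p = 1.98e-26 by Fisher's exact test). C/EBP was found in 13.6% of fat-alone sites and 19.3% of fat sites with a liver border (odds ratio 0.658, 0.574 to 0.755, adjusted p = 1.77e-08 by Fisher's exact test). AGGTCA was found in 12.9% of fat-alone sites and 16.5% of those with a border (odds ratio 0.746), and the D-box in 3.88% of fat-alone sites and 6.41% of those with a border (odds ratio 0.590). The rare GGTCA pair (0.388% of fat-alone sites, 0.851% with a border) and DR1 (0.441% of fat-alone sites, 0.951% with a border) were also lower, but these last 2 calls ended under 5 and 2 of 7 alternative settings, with odds ratios that stayed below 1. The Rev-erbα response element was found in 2.29% of fat-alone sites and 2.25% of fat sites with a liver border, and the interval of the odds ratio (1.02, 0.717 to 1.47) leaves room for a difference of either sign. The fat sites with a liver border also had higher scores and a higher GC content, and the part of these in the motif differences was not tested.

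Against distal brain-alone sites, several motifs of fat factors and of the clock were more frequent. Of the 27 motifs, 11 (40.7%) were higher in the fat-alone sites and 3 (11.1%) were lower. C/EBP was found in 13.6% of fat-alone sites and 4.13% of brain-alone sites (odds ratio 3.66, 3.12 to 4.31, adjusted p = 2.82e-66 by Fisher's exact test), and the brain-alone share was close to the 4.09% in the flanks of the fat-alone sites. The glucocorticoid receptor palindrome was found in 2.06% of fat-alone and 0.303% of brain-alone sites (odds ratio 6.92, 4.02 to 12.8, adjusted p = 5.43e-17 by Fisher's exact test). CACGTG was found in 5.94% of fat-alone and 2.39% of brain-alone sites (odds ratio 2.58), and EBF in 1.23% of fat-alone and 0.445% of brain-alone sites (odds ratio 2.80). CTCF was found in 3.81% of fat-alone and 1.88% of brain-alone sites (odds ratio 2.06), and AGGTCA in 12.9% of fat-alone and 8.88% of brain-alone sites (odds ratio 1.51). The D-box, TEAD, RUNX, AP-1 and the short NFI site were also higher, with odds ratios between 1.21 for the short NFI site and 1.63 for RUNX (TGTGGTT). The short NFI site did not hold: among peaks above the median score of their lists its odds ratio was 0.939. Under that restriction AP-1, CTCF and the D-box also fell short of the threshold, at odds ratios of 1.44, 1.40 and 1.49, and the RUNX call ended under 2 of 7 settings. The 3 lower motifs were CAGCTG (8.25% of fat-alone and 10.1% of brain-alone sites), forkhead, TGTTTNC (8.96% of fat-alone and 10.4% of brain-alone sites), and the GC-rich SP motif CCCGCC (1.60% of fat-alone and 4.27% of brain-alone sites). The forkhead call (odds ratio 0.844) ended under 5 of 7 settings, with odds ratios of 0.807 to 0.932 over the 7. The Rev-erbα response element was found in 2.29% of fat-alone and 1.82% of brain-alone sites, which was not past the threshold (odds ratio 1.27, 0.957 to 1.68, adjusted p = 0.203 by Fisher's exact test). DR1, the PPARγ type, did not pass either (0.441% of fat-alone and 0.303% of brain-alone sites, odds ratio 1.45, 0.737 to 2.97). The full NFI palindrome was less frequent, without passing (0.670% of fat-alone and 0.971% of brain-alone sites, odds ratio 0.688, 0.436 to 1.08). Base composition differed between the sets, with GC over 50% in 37.9% of fat-alone and 54.7% of brain-alone centres, and its part in these differences was not tested.

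**Figure D2:**
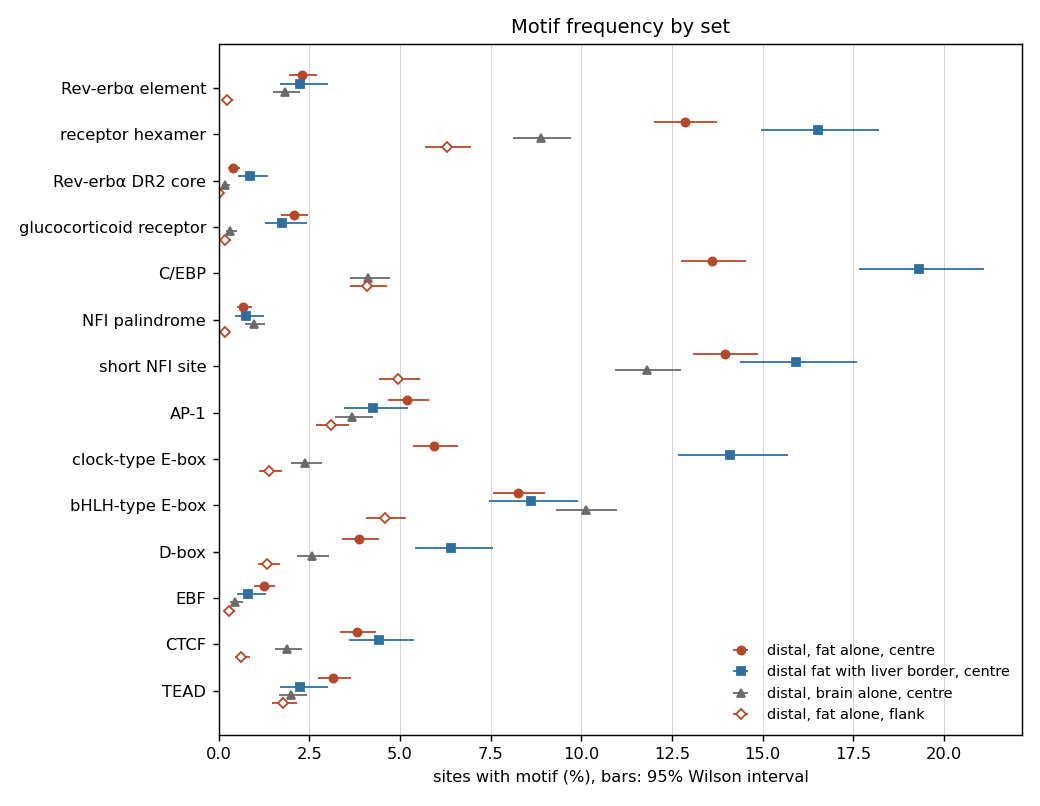
Share of sites with each motif within 50 bp of the centre (percent, horizontal axis) in distal fat-alone sites, distal fat sites with a liver border and distal brain-alone sites, with the flank of the fat-alone sites as open diamonds; bars are 95% Wilson intervals, which cover counting error only. For C/EBP the brain-alone share (4.13%) sits beside the fat-alone flank (4.09%), while the Rev-erbα elements of the 3 sets lie at 2.29%, 2.25% and 1.82%.

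Several of these motifs also varied with peak score within the fat-alone sites. The 1486 sites of the highest score quartile (18.2 and above) were compared with the 1765 of the lowest (11.1 and below) by Fisher's exact test, adjusted over 27 motifs. Of these, 5 (18.5%) were more frequent in the highest quartile and 1 (3.70%) was less frequent. CACGTG was found in 9.22% of the highest-scoring and 3.91% of the lowest-scoring sites (odds ratio 2.50, 1.84 to 3.41, adjusted p = 2.07e-08 by Fisher's exact test). The Rev-erbα response element was found in 3.16% of the highest-scoring and 1.19% of the lowest-scoring sites (odds ratio 2.71, 1.58 to 4.80, adjusted p = 9.73e-04 by Fisher's exact test), and the glucocorticoid receptor palindrome in 2.83% of the highest-scoring and 1.08% of the lowest-scoring (odds ratio 2.67, 1.51 to 4.89, adjusted p = 0.00251 by Fisher's exact test). C/EBP (15.7% of the highest-scoring, 12.5% of the lowest-scoring) and the short NFI site (16.0% of the highest-scoring, 12.7% of the lowest-scoring) had smaller differences, each with an odds ratio of 1.31 and an adjusted p of 0.0370 by Fisher's exact test. CTCF ran the other way, at 1.88% of the highest-scoring and 4.93% of the lowest-scoring sites (odds ratio 0.371, 0.232 to 0.577, adjusted p = 2.92e-05 by Fisher's exact test). The highest score of any site with a CTCF match was 33.4, that of the Slc7a10 site printed above. Among sites above the median score of the fat list alone, 0 of these 6 differences were past the threshold, and in a 51 bp window only those of CACGTG and CTCF were not lost. That restriction leaves 2337 sites and a narrower range of scores to compare. In it the odds ratios of CTCF (0.354), the short NFI site (1.37) and C/EBP (1.26) lay close to the values above, and those of the glucocorticoid receptor palindrome (1.86), the Rev-erbα response element (1.72) and CACGTG (1.69) were nearer to 1.

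**Figure D3:**
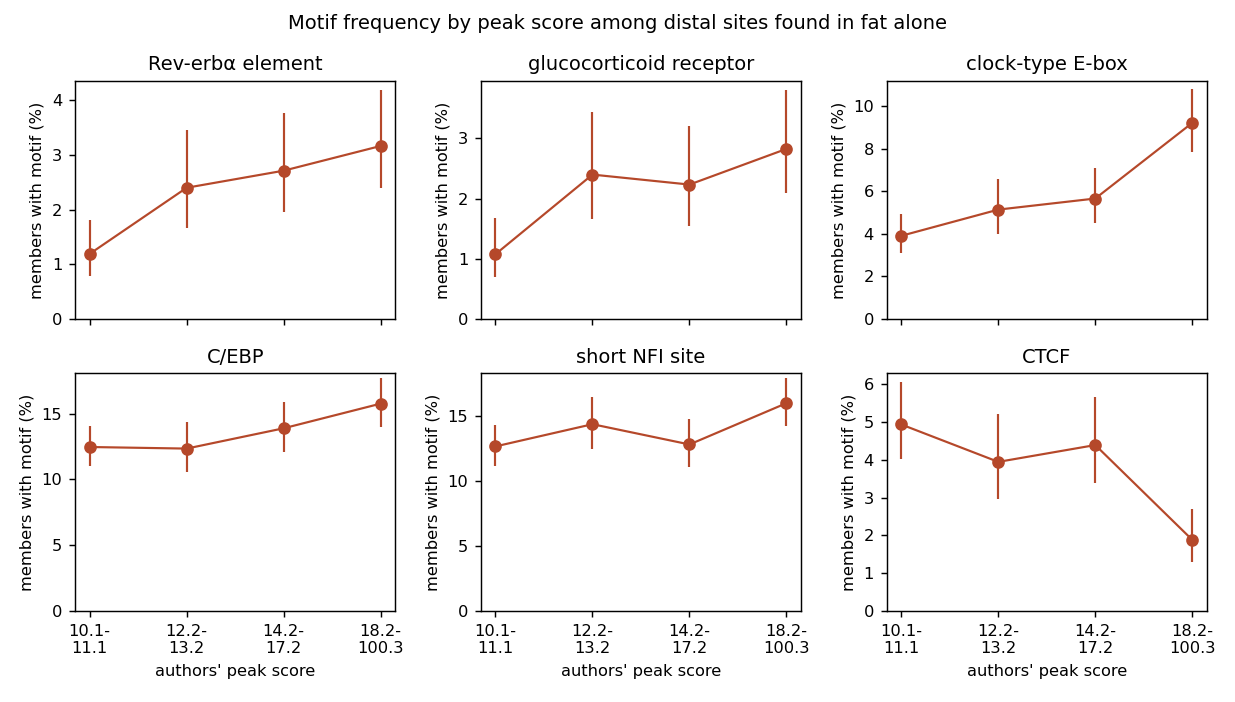
Share of distal fat-alone sites with each motif (percent, vertical axes, from 0) in 4 ranges of the authors' peak score (horizontal axes, low to high); bars are 95% Wilson intervals, which cover counting error only. The clock-type E-box stands at 3.91, 5.14, 5.66 and 9.22% from the lowest to the highest range, and CTCF at 4.93, 3.94, 4.39 and 1.88%.

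Some sites combined several motifs. Kinds were counted over the 14 enriched motifs without the full NFI palindrome. None was found in 43.9% of centres and 75.2% of flanks, and 39.2% of centres and 20.9% of flanks had 1 kind. Combinations of 2 kinds stood in 13.5% of centres and 3.58% of flanks, and of 3 kinds in 3.05% of centres and 0.229% of flanks. Some kinds share letters, as AGGTCA does with the other Rev-erb type elements and the D-box with C/EBP. A single sequence can thus count as several kinds, in centres and flanks alike. A motif of C/EBP, NFI, the glucocorticoid receptor, AP-1, EBF, CTCF or the E-box CACGTG without any Rev-erb type element was found in 1981 sites (34.9%, 33.7 to 36.2%). The flank share of this combination was not counted, and single motifs were found in flanks as well (4.09% for C/EBP, 4.95% for the short NFI site). Neither kind was found in 2904 sites (51.2%, 49.9 to 52.5%). Both of these counts can include sites with the G form of the hexamer, GGGTCA, outside the longer elements. The word TGGGTCA stood in 5.45% of all centres, and how many of these sites held it was not counted. C/EBP and the short NFI site stood together in 152 sites (2.68%), C/EBP and a Rev-erb type element in 98 (1.73%), and CACGTG and a Rev-erb type element in 30 (0.529%). Whether these 3 pairs met more or less often than their single shares would give was not tested.

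A search of all 8192 words of 7 bases, both strands counted together, was made without regard to known motifs. By exact McNemar test with adjustment over all words, 819 words (10.0%) were more frequent at the centre and 877 (10.7%) less frequent. The words more frequent at the centre had a mean of 3.86 G or C letters, and those less frequent 2.23; the median GC content was 47.5% at the centre and 45.5% in the flank, and its part in the word counts was not tested. The words chosen by the rule were the 10 with the largest ratio past the test. CCGGATA was found in 10 centres and GTTCGCA in 8, both in 0 flanks. Next by ratio stood TTCGCAA (8.5), then ACGTGCC (6.85), CACGTGC (6.77) and CCGAGTA (6.50), followed by ACGTGCG (6.33), TGCGAAA (6.00), CGAGAAC (5.75) and ACGTGCT (5.37). All 10 contain the dinucleotide CG, and 4 contain ACGTG of the E-box. They are rare words, found in 0 to 28 flanks each, and most words more frequent at the centre had no CG. CG stood in 118 of these 819 words (14.4%), in 13 of the 877 less frequent words and in 2760 of all 8192 words (33.7%). By site, CG was found at least once in 67.3% of centres and 58.1% of flanks. CACGTGC was the most frequent, in 3.14% of centres and 0.494% of flanks (ratio 6.77, exact McNemar test, adjusted p = 2.39e-25), and it stood in 7.76% of fat sites with a liver border and 1.03% of brain-alone sites. The words with the smallest p, named after their values were seen, were CTTGGCA (6.05% of centres and 1.60% of flanks), which contains the short NFI site, and TGACCCA (5.45% of centres and 1.27% of flanks). TGACCCA is the reverse complement of TGGGTCA, the G form of the receptor hexamer, which the search for AGGTCA misses. The A form, TAGGTCA, was found in 4.51% of centres and 1.15% of flanks. Read in the hexamer's direction, both words begin with the T that precedes the hexamer in the Rev-erbα response element.

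The distal fat-alone sites lay far from genes' starts. Of the 5672 centres, 2695 (47.5%) were in introns, 186 (3.28%) in exons and 2791 (49.2%) between genes, by the GENCODE vM1 protein-coding models. The median distance to the nearest start was 25895 bp (quartiles 8811 and 69515 bp), and 987 sites were over 100 kb from any start. More fat-alone sites lay over 50 kb from a start (33.0%, 31.8 to 34.2%) than fat sites with a liver border (25.9%; odds ratio 1.41, 1.26 to 1.58, adjusted p = 8.85e-09 by Fisher's exact test). The share was also above that of brain-alone sites (29.8%; odds ratio 1.16, 1.07 to 1.26, adjusted p = 5.62e-04 by Fisher's exact test). Introns held fewer of the fat-alone than of the brain-alone sites (47.5% of fat-alone and 52.7% of brain-alone, odds ratio 0.812, 0.752 to 0.877, adjusted p = 1.31e-07 by Fisher's exact test), and the difference from fat sites with a liver border (49.2%) did not pass (odds ratio 0.935, 0.843 to 1.04, adjusted p = 0.202 by Fisher's exact test). GC content over 50% was less common in the fat-alone centres (37.9%) than in fat sites with a liver border (45.4%, odds ratio 0.734) and brain-alone sites (54.7%, odds ratio 0.505), with adjusted p of 9.89e-09 and 9.07e-67 by Fisher's exact test over the 6 tests of place and composition.

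**Figure D4:**
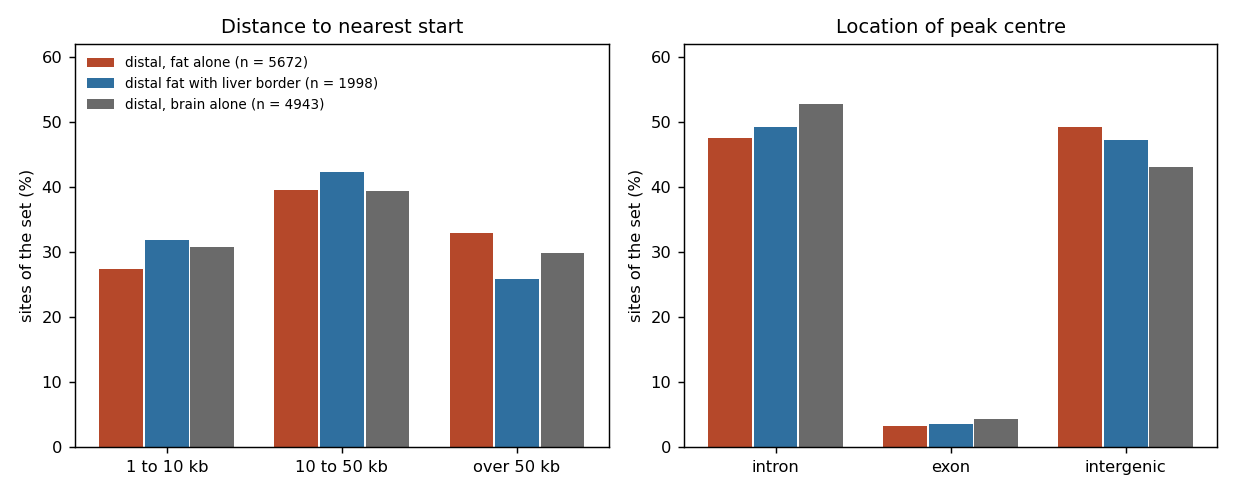
Share of sites (percent, vertical axis, from 0) by distance of the centre from the nearest protein-coding start (left) and by location of the centre (right), for 5672 distal fat-alone sites, 1998 distal fat sites with a liver border and 4943 distal brain-alone sites. The fat-alone bar is the highest of the 3 over 50 kb from a start (33.0%), and the lowest in introns (47.5%).

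Sites were spread over all chromosomes, from 2.996 per Mb on chromosome 11 to 0.516 per Mb on chromosome X, and most stood apart from each other. The median distance to the next distal fat-alone site was 65694 bp, 852 sites (15.02%) had another within 10 kb and 3238 (57.1%) had none within 50 kb. The densest group lay far upstream of Bcl6, a transcriptional repressor (168080 bp from its start at the central site), where 9 sites with scores of 11.1 to 19.2 stood on chromosome 16 between 24128727 and 24206912. A second group of 8, with scores of 10.1 to 35.5, lay on chromosome 15 between 11844040 and 11897218. Its central site was intergenic, 31814 bp from the start of Sub1, which encodes a transcriptional coactivator. Groups of 6 lay at Col4a2, which encodes a basement membrane collagen (chromosome 8, 11322775 to 11411908), and at Trim67, of the tripartite motif family (chromosome 8, 127339847 to 127400131). Another group of 6 lay on chromosome 4 (149190869 to 149233661). Its central site was intergenic, 48468 bp from the start of Spsb1, which encodes an adaptor of a ubiquitin ligase. The highest score in these 5 groups was 38.5, below that of each of the 15 highest-scoring sites.

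The 15 highest-scoring sites were mostly intronic, with 11 in introns and 4 between genes. The first (score 100.3, rank 49) lay in an intron of Gm20388, a gene model that spans many others, and its nearest start was that of Foxc2, a forkhead transcription factor, 123717 bp away (chromosome 8, 123763714 to 123763863). The second lay in an intron of Prkce, the gene of protein kinase C epsilon (chromosome 17, 86629704 to 86629853, score 93.2), and held a short NFI site and CACGTG. It lay just inside the rule, with a liver border 126 bp from the centre. The third lay in an intron of Zbtb16, which encodes a zinc finger transcription factor (chromosome 9, 48554693 to 48554842, score 87.1), and held AGGTCA. A site of the same score lay in an intron of Slit3, a secreted ligand of Robo receptors (chromosome 11, 35046053 to 35046202), 654 bp from a brain peak and with none of the enriched motifs. The Rasef site (score 86.1), whose sequence is printed above with its GGTCA pair, was 28692 bp from the nearest liver border and 503540 bp from the nearest brain peak. The other 10, with scores of 64.8 to 80.0, were nearest to Rngtt (an mRNA capping enzyme), Coro2b (an actin-binding coronin), Pnpla5 (a lipase of the patatin family), Sema3c (a secreted semaphorin), Tank (an adaptor of TRAF signalling), Ccl1 (a chemokine), Rasgrf1 (an exchange factor of Ras), Sash1 (a scaffold protein), Igf2bp2 (an RNA-binding protein) and 4833403I15Rik. The Tank site (score 69.9) was the other one near the limit, with a liver border at 104 bp. Of the 15 sites, 4 held a Rev-erb type element, 5 a short NFI site, 3 CACGTG, 1 C/EBP and 5 none of the enriched motifs.

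Long genes held the most sites. Counted from 10 kb before a gene to its end, Gm20388 held 23 and Fgfr2, a fibroblast growth factor receptor, 16, but these annotated models are 4434.9 and 3009.1 kb long and cover neighbouring genes. Ptprm, a receptor tyrosine phosphatase, held 12 in 687.6 kb (scores 11.1 to 23.3), beside 3 fat sites with a liver border and 1 brain-alone site. Arid1b, a subunit of the BAF chromatin remodelling complex, held 8 in 353.3 kb with a highest score of 47.6, and 1700112E06Rik held 8. Slit3 held 7, of which the highest scored 87.1, and Atrnl1, related to attractin, held 7 with scores up to 16.2. The next 10 genes all held 6, so the last places of the rule went in alphabetical order to 2610528E23Rik, Anks1b (an ankyrin repeat protein) and Arfip1 (a partner of ARF GTPases). Per length, Arid1b stood higher than Ptprm and Slit3, with 2.20 sites per 100 kb against 1.72 and 1.17. Some shorter genes with fewer sites stood higher still, such as Scara5 (5 sites, 4.61 per 100 kb) and Col4a2 (6 sites, 4.10 per 100 kb).

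Genes near the distal fat-alone sites included some of each fat metabolism list, and most genes of each list had no site within 10 kb. Of 22350 protein-coding genes, 1650 (7.38%) had such a site within 10 kb of a start. This share is the background for the lists that follow; they were chosen with earlier results of these data known, are described by counts alone and carry no test. Of the 1650 genes, 690 (41.8%) also had a brain peak within 10 kb, necessarily at another position, against 27.9% of all genes. Another fat peak within 10 kb, outside the distal fat-alone set, was listed for 272 of them (16.5%), against 8.04% of all genes. Only 161 genes had 2 or more of the sites, and no gene had more than 3.

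Clock genes were near the background share. Of 23 core clock genes, 2 (8.70%) had a distal fat-alone site within 10 kb. The share was 21.7% near distal fat sites with a liver border and 26.1% near distal brain-alone sites. The rule removed fat peaks at promoters, brain peaks or liver borders. The 8.70% thus does not tell how many clock genes had a fat peak nearby. The Hlf site was intronic, at 3500 bp from the start of this PAR bZIP activator (chromosome 11, 90239675 to 90239824, score 17.2, rank 3382), and held C/EBP, NFI and D-box matches. Hlf also had 3 brain peaks within 10 kb at other positions. Among 6 corepressor genes (NCoR and HDAC3 with partners), 2 (33.3%) had a site, 1 of them Hdac3 (score 19.2).

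Genes of fatty acid synthesis, adipokines and lipid storage lay above the background share of 7.38%. Of 16 genes of fatty acid synthesis 5 had a site (31.2%), led by Thrsp, a lipogenic regulator (chromosome 7, 104568996 to 104569145, 2830 bp upstream, score 18.2). The others were Fads1 and Scd1, both desaturases, the elongase Elovl5 and Pcx, the pyruvate carboxylase, with scores of 11.1 to 13.2. Of 17 adipokine genes 5 had a site (29.4%). Among them were Nrg4, a secreted growth factor (score 21.3), Adipoq, the gene of adiponectin (chromosome 16, 23151585 to 23151734, intron, score 19.2), Sfrp5, a secreted Wnt antagonist (15.2), and Retn, the gene of resistin (12.2). The Sfrp5 site lay in an exon of Zfyve27, 8703 bp from the Sfrp5 start. Of 18 genes of triglyceride synthesis and the lipid droplet 4 had a site (22.2%). Agpat3, an acyltransferase (chromosome 10, 77824811 to 77824960, score 37.5), and Bscl2, the gene of seipin (chromosome 19, 8918912 to 8919061, score 32.4, with a C/EBP match), had 2 each. Plin1, the gene of perilipin, scored 13.2 and Lpin2, a phosphatidate phosphatase, 11.1. The Plin1 site lay in an intron of Pex11a, 6325 bp from the Plin1 start. The counts depended on low-scoring sites to different degrees. With only peaks above the median score of the fat list, 1 synthesis gene, 4 adipokine genes and 2 triglyceride genes had a site, as did 699 of all genes. The 1998 fat sites with a liver border lay within 10 kb of 3.18% of all genes, and brain-alone sites of 7.01%. Near brain-alone sites the synthesis (18.75%), adipokine (17.65%) and triglyceride lists (11.1%) also lay above 7.01%. So did adipogenic (14.3%), insulin (14.3%) and uptake genes (11.8%), all at lower shares than near fat-alone sites. Thermogenic genes (6 of 15 near brain-alone sites, 1 near fat-alone sites), core clock and neuron genes had more near brain-alone sites. Of 13 lipolysis genes 0 had a brain-alone site. Shares above background were thus not confined to fat-alone sites. Some lists had more genes near fat sites with a liver border than near the more numerous fat-alone sites. These were core clock genes (8.70% near fat-alone sites, 21.7% near those with a border), triglyceride genes (22.2% near fat-alone sites, 27.8% near those with a border), adipogenic factors (23.8% near fat-alone sites, 28.6% near those with a border) and lipolysis genes (7.69% near fat-alone sites, 15.4% near those with a border). Neuron genes also went this way, at 0% near fat-alone sites and 5.00% near those with a border. The reverse held for synthesis genes (31.2% near fat-alone sites, 12.5% near those with a border) and adipokines (29.4% near fat-alone sites, 5.88% near those with a border). It also held for the fatty acid uptake, insulin, corepressor and stromal, vascular and immune lists. All genes showed that direction too, at 7.38% near the more numerous fat-alone sites and 3.18% near those with a border. These differences were not tested.

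Uptake and insulin genes showed similar shares, while lipolysis and thermogenic genes lay near the background within 10 kb, which depended on how sites were assigned to genes. Of 17 genes of fatty acid uptake 4 had a site (23.5%), led by Fabp4, a fatty acid carrier of adipocytes, with 2 (best at chromosome 3, 10201472 to 10201621, score 30.4, C/EBP and AP-1 matches). Cav2, a caveolin (score 25.3), Lrp1, a lipoprotein receptor (18.2), and Acsl1, an acyl-CoA synthetase (12.2), followed. Of 21 genes of insulin signalling and glucose uptake 5 had a site (23.8%). The best was at Hk2, a hexokinase, in an intron 1762 bp from the start (chromosome 6, 82721146 to 82721295, score 32.4), and held a glucocorticoid receptor palindrome. Socs3, an inhibitor of cytokine signalling (17.2), Akt2 (16.2), and Irs1 and Pik3ca (both 11.1), which act downstream of the insulin receptor, had weaker sites. Of 13 lipolysis genes 1 had a site (7.69%), Aqp7, the glycerol channel (score 26.3). Of 15 thermogenic genes 1 had a site (6.67%), Klb, the coreceptor of FGF21 (score 54.7, rank 235, in an intron 2576 bp from the start), which was the highest score among the listed genes. When each site was assigned to its nearest start at any distance, 4 lipolysis genes (30.8%) and 5 thermogenic genes (33.3%) had one, against 16.6% of all genes. Within 50 kb of a start the counts were 4 lipolysis genes (30.8%) and 3 thermogenic genes (20.0%), against 25.1% of all genes.

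Transcription factor genes and genes of other fat cell types were also represented. Of 21 adipogenic factors matched, 5 had a site (23.8%), all with scores of 16.2 or less. These were Klf4 (16.2), Zfp423, a preadipocyte factor (15.2), Rxra, the partner of PPARγ (12.2), and Stat5b and Nr3c1, the gene of the glucocorticoid receptor (both 11.1). Of 18 marker genes of stromal, vascular and immune cells 6 had a site (33.3%), led by Cdh5, the endothelial cadherin (chromosome 8, 106620686 to 106620835, score 24.3), then Col3a1 (15.2, a fibroblast collagen), Pecam1 and Csf1r (12.2 each, endothelial and macrophage markers) and Col1a1 (11.1). Of 20 neuron genes, 7 mesothelium genes and 12 housekeeping genes 0 had a site, and of 20 hepatocyte genes 1 did (5.00%), Ass1 (score 11.1). The rule removed overlaps with brain peaks and liver borders, and at the background share these lists would hold few sites, so their counts do not check the tissue label. Of the 41 listed genes with a site, the best site of 8 held a C/EBP match, where 13.6% of all 5672 sites held one. No test was made of this count.

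**Figure D5:**
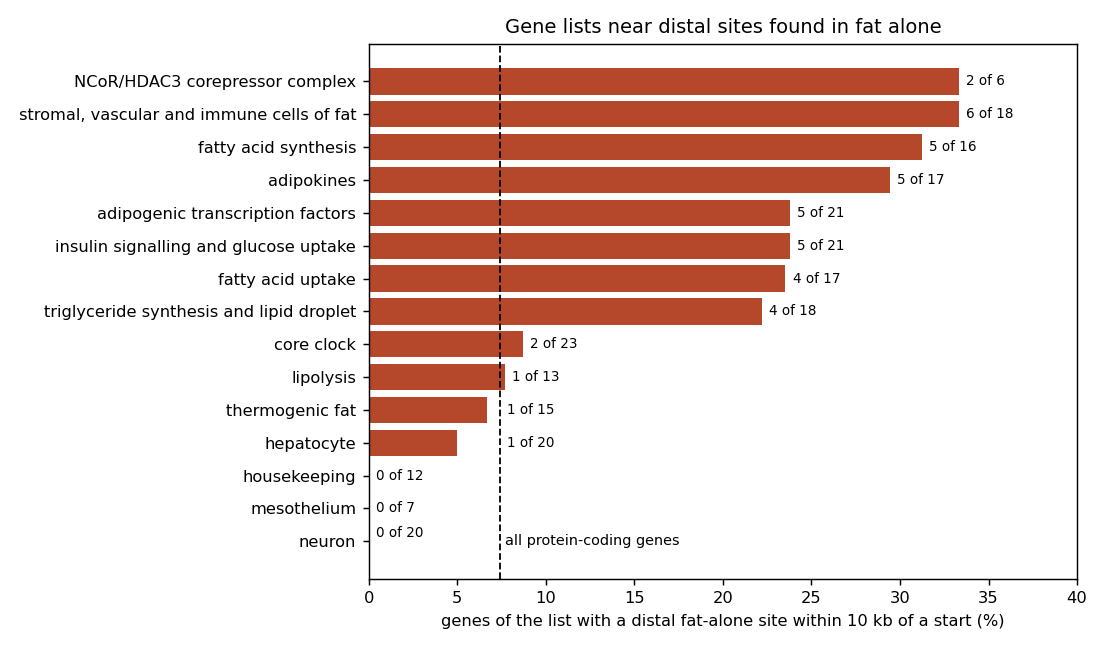
Share of the genes of each list with a distal fat-alone site within 10 kb of a start (percent, horizontal axis, from 0; counts at the bars), with the dashed line at 7.38% for all protein-coding genes. Of the 15 lists, those of thermogenic (6.67%), hepatocyte (5.00%), neuron, mesothelium and housekeeping genes (0 each) stay below the line, lipolysis (7.69%) and core clock (8.70%) lie just past it and the other bars lie between 22.2 and 33.3%; lists hold few genes and no test was made.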

How the data were processed

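Rev-erbα ChIP-seq peaks of fat and brain and ChIP-exo borders of liver were used as deposited, in mm9 coordinates. The submitters' processing notes name Bowtie 0.12.8 (ChIP-seq), Bowtie 1.1.1 (ChIP-exo) and HOMER, with no roles; the sources used here give no caller settings and say nothing of pooling. Each deposited peak has the authors' score, with no unit stated. Each deposited border has a signal and a p-value, per the file headers; these were not used to choose borders, only border positions were.

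Sites were placed on the mm9 sequence (NCBIM37) with GENCODE vM1 models: 22350 protein-coding genes with 70018 starts on chromosomes 1 to 19 and X. The sites, motifs and gene lists were chosen with earlier results of these data known. Motifs were exact matches on both strands. Tests were exact McNemar or Fisher tests, two-sided, with Benjamini-Hochberg adjustment and a threshold of 0.05; intervals are 95%, of Wilson for shares and exact for odds ratios and McNemar ratios, and cover counting error only. The tests were checked on simulated sequences of independent sites, with the same base composition in all sets and windows. That check thus does not cover differences in composition or dependence between neighbouring sites. Named items followed a rule: the 15 highest-scoring sites, 5 densest groups, core clock genes and up to 5 genes of each other list by score, the 10 genes with most sites, motifs past the test, and 10 words by ratio. Some listed genes with a site are not reported here. Of 245 list symbols 244 were matched, 3 by an older symbol. Alternatives varied the limits of the rule, the window, the flank and the gene distance. Computations used Python 3.11.15, numpy 2.4.6, scipy 1.17.1 and pandas 2.3.3.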

Additional observations from a re-analysis of the deposited data

Results flagged for a closer look

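The excess of a motif at the centre over the flank was compared between the distal fat-alone sites and each of the 2 other sets, by Fisher's exact test on the sites with the motif in 1 of the 2 windows only, adjusted over 54 tests; 10 passed. Values are ratios of ratios, with the fat-alone sites on top.

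Against brain-alone sites the excess was larger for the glucocorticoid receptor palindrome (6.13, 95% interval 1.81 to 20.6, adjusted p = 0.0134 by Fisher's exact test), C/EBP (3.71, 2.86 to 4.83, adjusted p = 2.41e-22), CTCF (2.93, 1.68 to 5.13, adjusted p = 8.60e-04) and CACGTG (2.60, 1.72 to 3.93, adjusted p = 5.43e-05). It was also larger for the D-box (1.83), RUNX (1.75) and AGGTCA (1.70), and smaller for CAGCTG (0.706, 0.555 to 0.897). For RUNX the fat-alone sites showed no excess of their own (127 sites with the motif in the centre only and 128 in the flank only), while the brain-alone sites had 68 and 120. For C/EBP the fat-alone sites had 736 and 196, against 192 and 190 in the brain-alone sites.

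Against fat sites with a liver border the excess was smaller for CACGTG (0.469, 0.283 to 0.759, adjusted p = 0.0116) and C/EBP (0.650, 0.469 to 0.891, adjusted p = 0.0330 by Fisher's exact test). The Rev-erbα response element did not pass in either comparison (0.956 against brain-alone sites and 0.479 against fat sites with a liver border, adjusted p = 1 and 0.808 by Fisher's exact test). The C/EBP and CACGTG differences from brain-alone sites passed under each of the 9 alternatives tried, and each of the other 8 ended under at least 1. What lies behind these differences was not tested.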

How the results depend on the processing

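No paired analysis was possible because each group is 1 deposited list with no values per replicate; for the same reason no replicate could be left out. The planned comparison of repeat-masked sequence was not run, since the genome sequence used here marks no repeats. Of the 15 motif calls between centre and flank, 13 held in every alternative; 4 of 6 held against fat sites with a liver border, 8 of 14 against brain-alone sites, 2 of 10 for the excess over flank, and 0 of 6 between score quartiles. All 6 of these ended with only peaks above the median score, which cuts the range of scores compared and leaves 2337 sites; the calls of CACGTG and CTCF held in each of the 6 other settings. Over all settings 28 of 42 values between score quartiles held, as did 61 of 90 for the excess over flank. Where the fewer sites do not show it, the cause was not tested. List counts moved with the gene distance too, and by nearest start 66.7% of corepressor genes, 57.1% of adipogenic factors and 0% of neuron genes had a site. Counting only peaks above the median score left 2 adipogenic factors, 2 stromal, vascular and immune genes and 1 synthesis gene with a site. It left 3 uptake genes, 3 insulin genes, 4 adipokine genes and 2 corepressor genes.

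With only peaks above the median score, 7 motifs were higher than in brain-alone sites, the excess was larger for 2 and smaller for 0 motifs against brain-alone sites and smaller for 0 against fat sites with a liver border, 0 motifs were higher and 0 lower at the highest scores, 385 words were higher and 451 lower, 699 genes had a site, and the short NFI site reversed against brain-alone sites (odds ratio 0.939). With a border within 500 bp ending membership (5003 sites), the intron share differed from fat sites with a liver border (-2.59 percentage points), 1 motif was higher than there, the excess was smaller for 0, and 3 motifs were higher at the highest scores. With a 51 bp window the excess was smaller for 1 motif against fat sites with a liver border and for 0 against brain-alone sites, 1 motif was higher at the highest scores, and 397 words were higher and 450 lower. With a window of 100 bp to each side 2 motifs were higher than in fat sites with a liver border, the excess was larger for 2 and smaller for 6 there and smaller for 2 against brain-alone sites, and 2 motifs were lower at the highest scores. With the flank at 500 bp, 0 motifs were lower at the centre and the excess was smaller for 1 against fat sites with a liver border. Within 50 kb of a start 5613 genes had a site, and by nearest start 3711 did. Depth, absent from the lists, limits every statement that a site is in fat alone.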

Other observations

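The clock E-box and the Rev-erbα response element were not seen together within 50 bp of a centre, though 30 sites (0.529%) held CACGTG with a Rev-erb type element of the wider kind that includes AGGTCA alone. Of the 130 distal fat-alone sites with the response element at the centre, 0 held CACGTG (upper 95% Wilson limit 2.87%), against 337 of the 5542 sites without the element (6.08%). By Fisher's exact test, adjusted over 5 motifs, this difference passed (odds ratio 0, upper limit 0.447, adjusted p = 0.00264); the comparison was chosen after the counts were seen. CTCF showed 0 of 130 against 216 of 5542 (3.90%, upper limit of the odds ratio 0.716, adjusted p = 0.0245 by Fisher's exact test). C/EBP (14.6% with the element, 13.6% without), the short NFI site (10.8% with it, 14.0% without) and the glucocorticoid receptor palindrome (0.769% with it, 2.09% without) did not pass. The E-box difference held under 6 of 7 alternatives and not in the 51 bp window, and the CTCF difference held under 2 of 7; these alternatives were chosen after seeing the data. A site has room for few motifs, and the part of this in the counts was not tested.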
